A study of Mus musculus with 2 samples.

Results

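The genes described here encode proteins of the granular and cornified layers of mouse epidermis: the filaggrin-type proteins Flg, Hrnr and Rptn, the envelope proteins Lor and Ivl, the late differentiation proteins Casp14, Krtdap and Cdsn, and the crosslinking enzymes Tgm1 and Tgm3. The 10 genes were chosen by name, and their probe sets were found through the gene symbols of the platform annotation. All 10 were represented, by 14 of the 22690 probe sets, and all 10 were measured, among 8894 measured genes of 12393 that could be named. A gene counted as measured when its brightest probe set (by the sum of both arrays) exceeded a floor of 34.7 on at least 1 array. Of the 10, 9 exceeded it on both arrays, and the exception was Casp14, which lay below it in wild-type skin.

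The study set mice that express a constitutively active aryl hydrocarbon receptor (AhR) in their keratinocytes against wild-type littermates without the transgene. AhR is a transcription factor activated by dioxin-like and other aromatic ligands, and the constitutively active form needs none. Back skin was taken at 10 days of age in both groups, and total RNA labelled with biotin gave 1 array for transgenic mice and 1 array for wild-type mice. The title of the transgenic array carries K14, the name of the basal-layer keratin whose promoter is widely used to direct transgenes to keratinocytes of the basal epidermis and the outer root sheath of hair. The labels give neither the strain nor the number of animals behind an array. With 1 array per genotype no difference could be tested and no replicate error exists. Every ratio below compares these 2 arrays only.

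Cornification is the last step of keratinocyte differentiation. In the granular layer, profilaggrin collects in keratohyalin granules and is later cut into filaggrin units that bundle keratin filaments and are then degraded into water-holding amino acids. At the same time transglutaminases crosslink proteins under the plasma membrane into the cornified envelope, with involucrin as an early scaffold and loricrin as the main later filling. Several of the genes lie together in the epidermal differentiation complex on chromosome 3.

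The cornification genes did not read in 1 direction. Of the 10, 4 read at least 2-fold higher on the transgenic array, namely Casp14, Hrnr, Flg and Krtdap. Ivl, 1 of 10, read at least 2-fold lower. The other 5 lay within 2-fold. Across all measured genes 2.27% reached that limit upwards and 1.09% downwards. The log2 ratio, transgenic over wild type, had a median of 0.47 over the 10 genes and of -0.05 over all measured genes. The genes were chosen with results of these arrays known, so these counts describe them and are not evidence about a pathway.

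**Figure D1:**
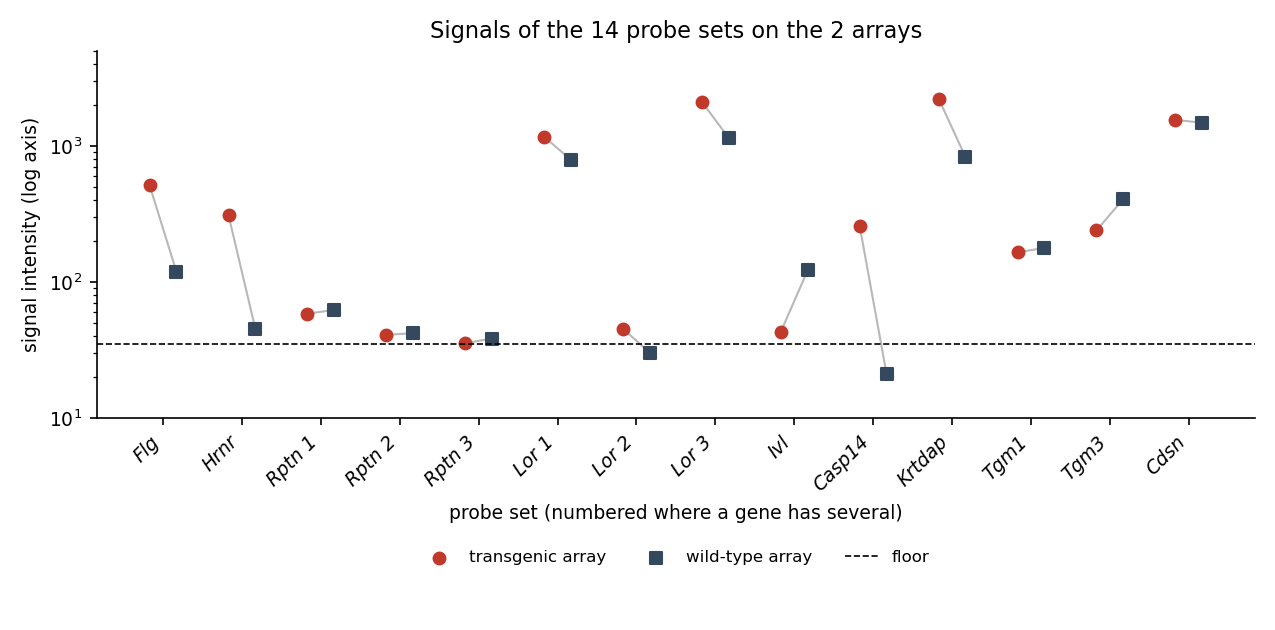
Signal intensity (log axis) of 14 probe sets, transgenic (circles) beside wild type (squares), 1 array per genotype, with the floor of 34.7 as a dashed line. Flg, Hrnr, Casp14 and Krtdap are higher on the transgenic array, Ivl is lower, and the 3 probe sets of Rptn lie close to the floor on both arrays.

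Among the filaggrin-type genes, Flg and Hrnr read higher on the transgenic array and Rptn did not. All of them belong to the S100-fused family, whose members join a calcium-binding S100 domain to long repeats. Flg, which encodes profilaggrin, gave a signal of 511.5 in transgenic and 118.4 in wild-type skin, 4.32-fold higher (log2 ratio 2.11). Hrnr, the gene of hornerin, gave 308.1 in transgenic and 45.1 in wild-type skin, 6.83-fold higher (log2 ratio 2.77). The wild-type signal of Hrnr lay just above the floor, so the size of its ratio depends on how low signals are treated: it was at least 2.12 on the log2 scale under a higher floor (60th percentile of signals). Whether the probes of Flg and Hrnr also bind other repeat-rich transcripts was not tested.

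Rptn, the gene of repetin, another envelope precursor, had 3 probe sets. The brightest gave 58.4 in transgenic and 62.1 in wild-type skin (log2 ratio -0.09). The others gave 40.7 and 35.4 in transgenic skin, against 42.0 and 38.3 in wild-type skin. The log2 ratios of the 3 probe sets spanned 0.07, and all of them were slightly below 0. The floor limits how large a lower value could appear here, not a higher one.

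Flg, Hrnr and Rptn follow each other directly among the protein-coding genes of chromosome 3, so the step between the high ratios and the ratio near 0 falls between the neighbours Hrnr and Rptn. Their 250 bases before the annotated start are shown because these neighbours read differently. The sequences are from RefSeq (GRCm38.p6), all on the plus strand: Flg at chr3:93273296-93273545, Hrnr at chr3:93319499-93319748 and Rptn at chr3:93393449-93393698. Capitals mark TATAAA, the letters of a TATA box.
Flg: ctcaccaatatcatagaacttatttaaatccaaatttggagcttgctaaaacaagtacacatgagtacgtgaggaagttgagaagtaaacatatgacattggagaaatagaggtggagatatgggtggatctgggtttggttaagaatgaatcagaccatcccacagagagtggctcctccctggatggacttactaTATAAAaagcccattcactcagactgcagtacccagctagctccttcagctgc
Hrnr: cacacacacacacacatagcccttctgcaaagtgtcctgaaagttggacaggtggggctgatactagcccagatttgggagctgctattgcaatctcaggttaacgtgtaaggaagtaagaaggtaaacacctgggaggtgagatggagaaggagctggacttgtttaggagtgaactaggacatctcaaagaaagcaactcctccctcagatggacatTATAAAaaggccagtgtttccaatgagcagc
Rptn: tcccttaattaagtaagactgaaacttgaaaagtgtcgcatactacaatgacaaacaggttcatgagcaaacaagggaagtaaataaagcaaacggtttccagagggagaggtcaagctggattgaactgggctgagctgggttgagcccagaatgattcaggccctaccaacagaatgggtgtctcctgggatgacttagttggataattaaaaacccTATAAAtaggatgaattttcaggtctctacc
Global alignment gave these neighbours the highest scores among 64 pairs of upstream windows of different cornification genes, with 140 identical bases of 210 aligned between Flg and Hrnr, 149 of 231 between Flg and Rptn and 133 of 207 between Hrnr and Rptn. The alignment scores were 153, 147.5 and 102.5, and the highest of the 61 other pairs scored 101, close to Hrnr and Rptn. Other pairs had similar shares of identical bases, such as Krtdap and Tgm1 with 143 of 216 and Lor and Tgm3 with 118 of 167. Whether the promoters of these neighbours are related was not tested. TATAAA stood in all of them, 53 bases before the start in Flg and 31 bases before it in both Hrnr and Rptn.

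The other family member with a probe set, Tchh, which encodes trichohyalin of the hair inner root sheath and lies next to Rptn, gave 833.7 in transgenic and 1024.9 in wild-type skin (log2 ratio -0.30). Flg2, Crnn and Tchhl1 were not analysed here.

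Casp14 had the highest ratio of the cornification genes. It encodes caspase-14, a protease of the cornifying layers that takes part in the breakdown of filaggrin. Its only probe set gave 256.4 in transgenic and 21.1 in wild-type skin. Since the wild-type signal lay below the floor, the gene was at least 7.39-fold higher on the transgenic array (log2 ratio at least 2.89), and this bound ranked 8 of 8894 measured genes. Hrnr ranked 10 and Flg 25. With the floor at the 20th percentile both arrays exceeded it and the log2 ratio was 3.60. With the floor at the 60th percentile the bound was 1.86. Of the other caspases on the list, which act in apoptosis or inflammation, 7 of 9 had a probe set, 6 were measured and none was called in either direction. Their median log2 ratio was 0.42. The highest were Casp6, an executioner caspase, with 119.3 in transgenic and 70.1 in wild-type skin (0.77), and Casp1, which matures interleukin-1, with a bound of at least 0.44. The lowest were Casp9, the initiator of the mitochondrial route (at most -0.13, a bound), and Casp2 (0.10).

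**Figure D2:**
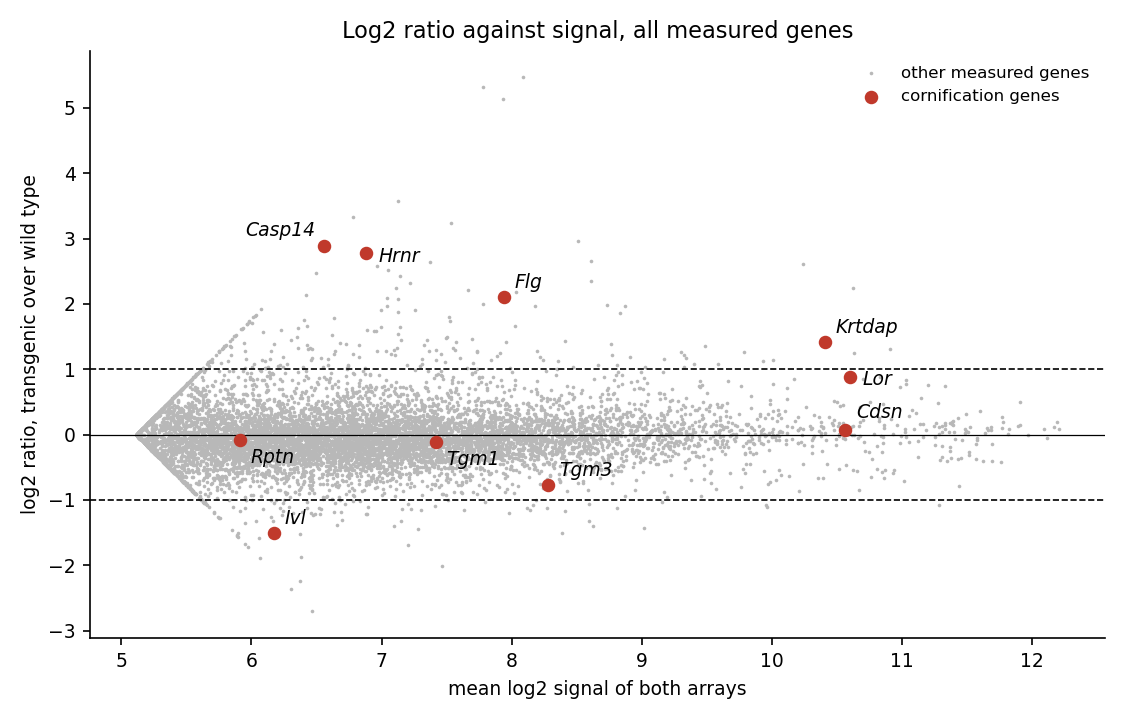
Log2 ratio, transgenic over wild type, against the mean log2 signal of both arrays, for the 8894 measured genes (grey) and the 10 cornification genes (red), with dashed lines at 2-fold. Casp14 is drawn at its bound, and the slanted edges at low signal are genes with 1 array at the floor.

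Krtdap, Lor and Cdsn gave bright signals on both arrays. Krtdap, which encodes a small secreted protein of differentiating keratinocytes, gave 2223.5 in transgenic and 829.2 in wild-type skin, 2.68-fold higher (log2 ratio 1.42, rank 79 of 8894). Among the called genes it was the one whose signals lay farthest above the floor on both arrays. Cdsn, which encodes corneodesmosin, the adhesive protein of the junctions between corneocytes, gave 1551.5 in transgenic and 1478.2 in wild-type skin (log2 ratio 0.07).

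Lor, the gene of loricrin, the glycine-rich main protein of the envelope, had 3 probe sets, and each was higher on the transgenic array. The brightest gave 2102.3 in transgenic and 1142.9 in wild-type skin (1.84-fold, log2 ratio 0.88). Its name carries a suffix that marks possible binding of related transcripts. Another probe set without the suffix gave 1166.4 in transgenic and 787.6 in wild-type skin (1.48-fold, log2 ratio 0.57). The dimmest gave 45.2 in transgenic skin and a value below the floor, 30.1, in wild-type skin, a log2 ratio of at least 0.38. Lor therefore read higher on the transgenic array in 3 of 3 probe sets, under 2-fold in the 2 that exceeded the floor on both arrays. The span between its probe sets was 0.50, which counts the bound of the dimmest. The 2 above the floor on both arrays lay closer together, at 0.88 and 0.57. In 2535 genes with several probe sets that exceeded the floor in both groups, the span had a median of 0.28 and a 95th percentile of 0.84. Such a span compares readings of a gene on the same 2 arrays and says nothing about differences between animals. Lor and Rptn were the only genes with more than 1 probe set, so the other 8 have no second reading.

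Ivl read in the opposite direction. It encodes involucrin, the glutamine-rich scaffold to which later envelope proteins are joined. Its probe set gave 42.9 in transgenic and 121.3 in wild-type skin, 2.83-fold lower (log2 ratio -1.50), and it ranked 17 from the lowest of 8894. The transgenic signal lay just above the floor. With the floor at the 60th percentile the transgenic signal lies below it, so the log2 ratio there is a bound, -0.78 or lower, that does not reach the 2-fold call. Ivl had a negative ratio under each of the 9 alternatives that give one.

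The enzymes that crosslink the envelope were not higher. Tgm1, the membrane-anchored transglutaminase of the granular layer whose loss causes lamellar ichthyosis in humans, gave 164.7 in transgenic and 177.6 in wild-type skin (log2 ratio -0.11). Tgm3, a transglutaminase of the upper epidermis and the hair follicle, gave 238.5 in transgenic and 406.1 in wild-type skin, 1.70-fold lower (log2 ratio -0.77, rank 252 from the lowest). Hair shaft and inner root sheath markers were also lower. Of 14 measured markers 13 lay below 0, while 43.6% of all measured genes lay above it. The markers had a median of -0.38, 1 was called lower (Krt84, -1.51), and their summed signal was 27425.8 in transgenic and 33542.6 in wild-type skin. Their part in the Tgm3 value was not tested. In whole skin fewer cells of a type and less RNA per cell cannot be told apart.

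Of the other transglutaminase genes, 3 of 7 had a probe set and 2 were measured. F13a1, the A chain of coagulation factor XIII, which macrophages of the dermis express, gave 345.3 in transgenic and 124.9 in wild-type skin, 2.76-fold higher (log2 ratio 1.47). Macrophage markers were higher as well, 7 of 12 being called higher (C1qa, C1qb, C1qc, Mrc1, Lyz2, Cd163 and Csf1r) and none lower, with a median of 1.20 and summed signals of 2664.8 in transgenic and 943.6 in wild-type skin. Cd163 and Fcgr1 exceeded the floor only on the transgenic array, so their ratios are bounds that could not lie below 0. Of all measured genes 2.27% were called higher. The part of macrophages in the F13a1 value was not tested. Tgm2, the widely expressed tissue transglutaminase, gave 98.5 in transgenic and 91.2 in wild-type skin (log2 ratio 0.11). This is the brightest of its 6 probe sets and carries a suffix. The others are not given here. F13a1 was thus the 1 gene of this list called higher, and none was called lower.

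The upstream windows of Casp14, Krtdap and Ivl are shown beside these values because they belong to the genes called in each direction outside the filaggrin neighbourhood. They are from RefSeq (GRCm38.p6), 250 bases before the start: Casp14 at chr10:78718294-78718543 on the minus strand, Krtdap at chr7:30787655-30787904 on the plus strand and Ivl at chr3:92573736-92573985 on the minus strand. Capitals mark TATAAA and TGAGTCA or its reverse complement, the letters of an AP-1 element.
Casp14: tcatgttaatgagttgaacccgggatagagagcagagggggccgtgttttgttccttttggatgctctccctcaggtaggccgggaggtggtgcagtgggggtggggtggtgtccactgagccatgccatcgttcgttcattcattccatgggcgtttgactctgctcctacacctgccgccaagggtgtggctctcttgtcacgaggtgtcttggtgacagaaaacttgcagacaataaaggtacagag
Krtdap: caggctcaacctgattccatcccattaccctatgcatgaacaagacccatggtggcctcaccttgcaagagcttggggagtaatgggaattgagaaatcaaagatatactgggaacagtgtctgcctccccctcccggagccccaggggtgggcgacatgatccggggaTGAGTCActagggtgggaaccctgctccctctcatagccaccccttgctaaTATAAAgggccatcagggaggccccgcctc
Ivl: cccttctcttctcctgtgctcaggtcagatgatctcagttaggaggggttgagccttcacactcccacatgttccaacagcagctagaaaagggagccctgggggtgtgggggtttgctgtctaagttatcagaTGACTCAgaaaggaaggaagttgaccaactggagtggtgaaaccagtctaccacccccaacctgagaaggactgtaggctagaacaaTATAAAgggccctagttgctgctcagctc
AP-1 is a dimer of Jun and Fos proteins that is known to act on involucrin and loricrin promoters. All motifs were searched on both strands. TGAGTCA occurred upstream of 3 of the 10 genes, Lor, Ivl and Krtdap, and in 4.46% of 32851 windows of the same length in the table. TATAAA occurred upstream of 7 of the 10 genes, and in 12.4% of all windows. These counts are of genes with a match in any of their windows, while the percentages are of windows. The 5 bases GCGTG, the core of the element that AhR and its partner ARNT bind, occurred in none of the 12 windows of the 10 genes and in 28.2% of all windows. None of these motifs overlapped another. Krtdap, called higher, and Ivl, called lower, both had TATAAA and TGAGTCA, while Casp14 had none of the motifs in this window. These matches describe letters in a short window and not binding.

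**Figure D3:**
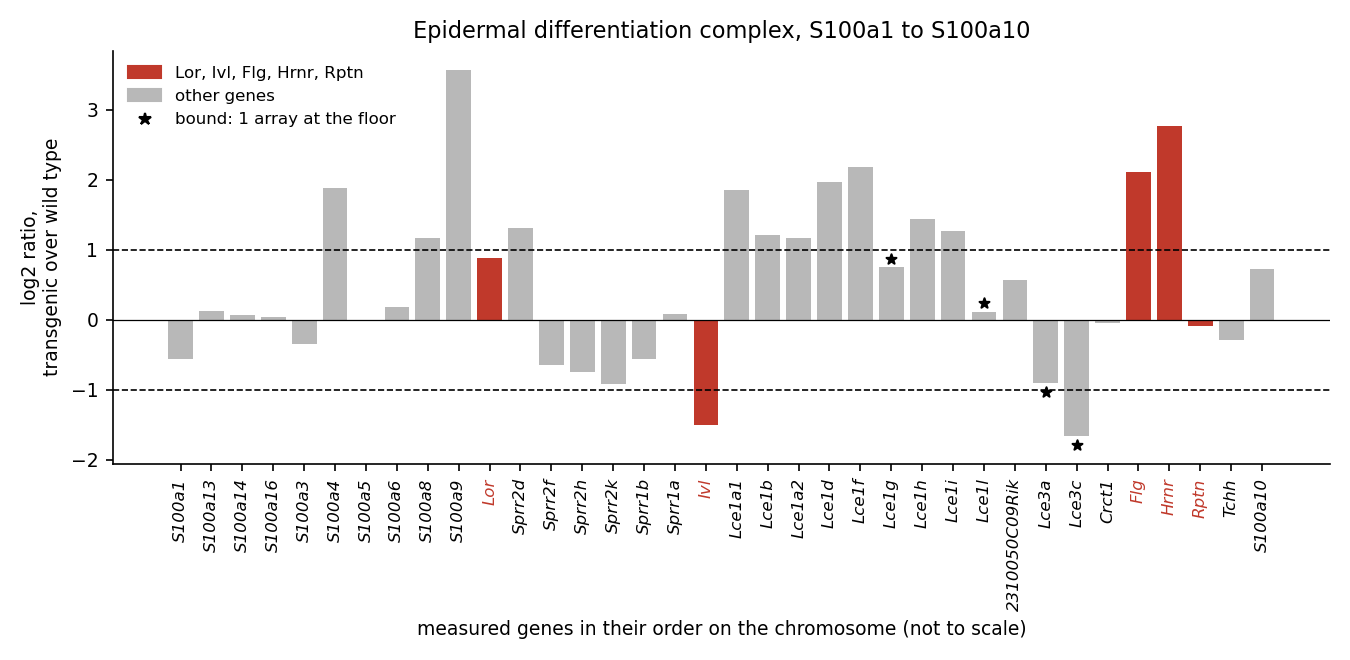
Log2 ratio, transgenic over wild type, for the 36 measured genes from S100a1 to S100a10 in their order on chromosome 3 (not to scale), with Lor, Ivl, Flg, Hrnr and Rptn in red, dashed lines at 2-fold, and stars on bounds. Ivl ends a run of mostly negative Sprr values and stands before the positive Lce1 values, and Flg and Hrnr stand apart from the measured genes on either side, Crct1 and Rptn, which lie near 0.

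Of the cornification genes, 5 lie in the epidermal differentiation complex and 5 on other chromosomes. In the complex 2 of 5 were called higher and 1 lower. On the other chromosomes 2 of 5 were called higher and none lower, with Casp14 on chromosome 10, Krtdap on 7, Tgm1 on 14, Tgm3 on 2 and Cdsn on 17. The ratios within the complex alternated along the chromosome, as the plot of ratios by gene order shows. Lor stands before the Sprr genes, small proline-rich crosslinked envelope proteins, and Ivl after them. Of 6 measured Sprr genes 1 was called higher, Sprr2d (2.47-fold), none was called lower, and the median was -0.60. Sprr1a was next at 0.08, and the lowest were Sprr2k (-0.92) and Sprr2h (-0.75). The Lce genes, of late cornified envelope proteins, follow Ivl. Of 11 measured, 7 were called higher and 1 lower, with a median of 1.21. The highest were Lce1f (559 in transgenic and 123 in wild-type skin) and Lce1d (571.4 in transgenic and 146.2 in wild-type skin), the others called higher were Lce1a1, Lce1a2, Lce1b, Lce1h and Lce1i, and the gene called lower was Lce3c, at least 3.18-fold. Several Lce probe sets can bind related transcripts, so the Lce genes may not be separate readings. Over all 31 measured genes of the complex other than the 5 described here, 11 were called higher and 1 lower, with a median of 0.13. Of all measured genes on the arrays 2.27% were called higher and 1.09% lower. Among the 31, those called higher were the 7 Lce genes, Sprr2d, S100a9 (log2 ratio 3.57), S100a4 (1.88) and S100a8 (1.16). No test of these differences was possible.

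Enzymes that process filaggrin did not follow Flg as a group. Of 11 listed, 9 were measured, 1 was called higher, none was called lower, and the median was -0.01. The gene called higher was Hal, histidase, which turns the histidine released from filaggrin into urocanic acid, with 234.5 in transgenic and 85.8 in wild-type skin (2.73-fold). Furin, a proprotein convertase, was next (log2 ratio 0.39). The lowest were Padi1 (290.9 in transgenic and 483.5 in wild-type skin, log2 ratio -0.73), a deiminase that converts arginine to citrulline, and Prss8 (-0.67), the membrane protease prostasin. Asprv1, a retroviral-like aspartic protease that cuts profilaggrin, gave 1939.7 in transgenic and 1682.4 in wild-type skin. Padi3 (-0.47), St14 (-0.37), Pcsk6 (-0.01) and Blmh (0.14) also lay within 2-fold. Padi3 also acts in the hair follicle, where the markers were lower as given above, and their part was not tested.

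Other genes of the envelope and of granular-layer secretion lay within 2-fold, 6 of 6 measured. Dmkn, a neighbour of Krtdap that encodes the secreted protein dermokine, gave 2609.6 in transgenic and 1576 in wild-type skin (log2 ratio 0.73). Cst6, cystatin M/E, an inhibitor of the proteases that activate transglutaminases, was at 0.50. The plakins, which make the first layer of the envelope with involucrin, were slightly below 0: Ppl, periplakin, at -0.33 and Evpl, envoplakin, at -0.25. These are close in size to the SD between probe sets of a gene, 0.265, so their direction says little. The probe set of Ppl carries a suffix. Of 7 measured corneodesmosome genes 1 was called higher, Klk6, a kallikrein protease, with 879.7 in transgenic and 172.6 in wild-type skin (5.10-fold), and none was called lower. Klk7, which cleaves corneodesmosin, was at 0.85, while the cadherin gene Dsc1 was at -0.19 and the plakin gene Dsp at 0.01. The regulators of epidermal differentiation on the list were not called in either direction, with 9 of 14 measured and a median of 0.04. They ran from Cebpa (0.52) and Klf4 (0.42), which promote late differentiation, down to Trp63 (-0.29), which encodes p63 of the basal layer, and Prdm1 (-0.34), a repressor active in the granular layer.

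**Figure D4:**
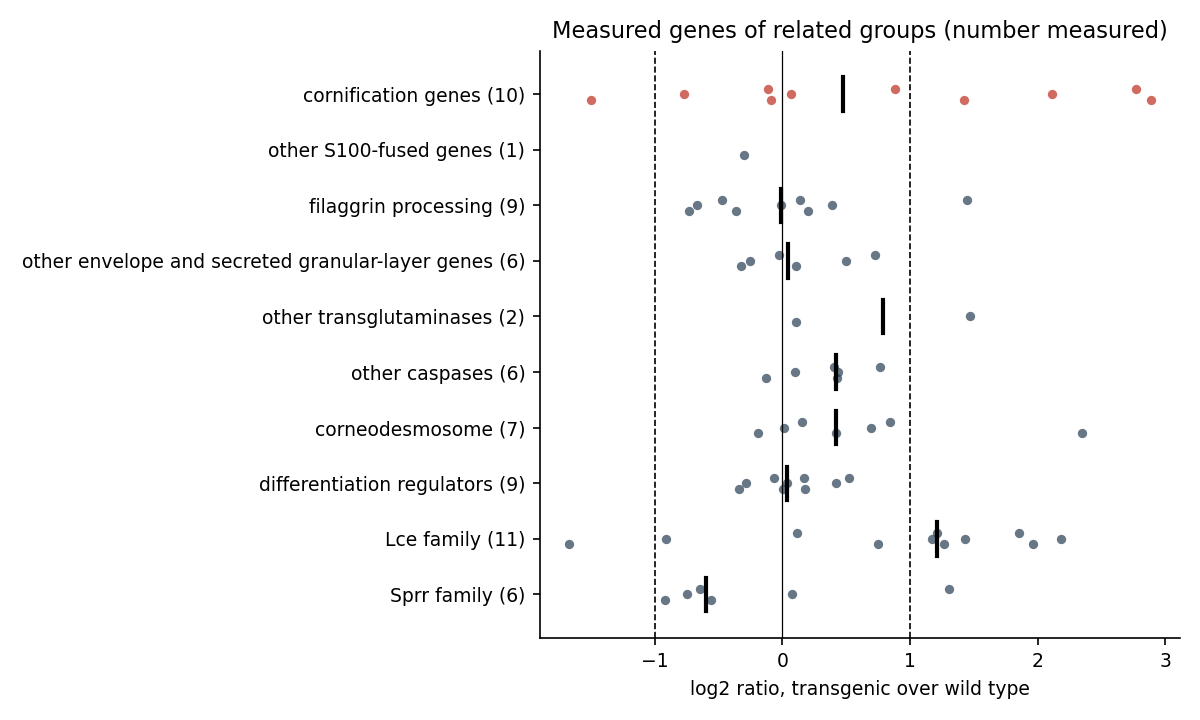
Log2 ratio, transgenic over wild type, of each measured gene (points), for the 10 cornification genes (red) and the related groups (dark), with the number measured in brackets, black bars at medians and dashed lines at 2-fold. Bounds are drawn at their bound, and the cornification genes spread from -1.50 to 2.89 while the regulators stay within 2-fold.

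Markers of epidermis and of the other tissues of back skin were present on both arrays. The keratins of the basal layer gave 3328.1 in transgenic and 1987.4 in wild-type skin for Krt14 (log2 ratio 0.74) and 2754.2 in transgenic and 1867.6 in wild-type skin for Krt5 (0.56). Of the spinous keratins, Krt1 gave 2992.3 in transgenic and 489.1 in wild-type skin (6.12-fold higher) and its partner Krt10 gave 3043.9 in transgenic and 1807.6 in wild-type skin (1.68-fold). Krt77 gave 1747.4 in transgenic and 1535.7 in wild-type skin (log2 ratio 0.19), and Krt2 lay below the floor on both arrays. The probe sets used for Krt14 and Krt10 carry a suffix. The 5 measured spinous markers had a median of 0.75, with Dsc1 lowest at -0.19. Of them 2 were called higher, Krt1 and Calm4, with summed signals over all listed markers of 11513.3 in transgenic and 4880.3 in wild-type skin. Their part in the values of Flg, Hrnr, Casp14 and Krtdap was not tested. Of 7 measured basal markers 1 was called higher, Itgb4, and 1 lower, Krt15, with summed signals of 7761.7 in transgenic and 5767.3 in wild-type skin.

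Markers of several other cell types were lower on the transgenic array, besides those of hair. For comparison, 43.6% of all measured genes lay above 0. All 5 measured melanocyte markers lay below 0 (median -1.03), 3 were called lower, Tyr, Tyrp1 and Dct, and their summed signals were 1218.7 in transgenic and 2433.1 in wild-type skin. All 5 measured sebocyte markers lay below 0 as well (median -0.54), 2 were called lower, Scd1 and Scd3, and the sums were 2084.5 in transgenic and 3509.6 in wild-type skin. Of 9 measured skeletal muscle markers 8 lay below 0 (median -0.53), and the sums were 4697.4 in transgenic and 5798.9 in wild-type skin. Myh8 was called lower, at -1.27 or below. It exceeded the floor only on the wild-type array, so its ratio is a bound that could not lie above 0. Fibroblast markers had a median of 0.22 over 6 genes, with Pdgfra called higher and sums of 9236.6 in transgenic and 9712.9 in wild-type skin. The 3 measured adipocyte markers had a median of -0.07, none was called, and the sums were 2299.8 in transgenic and 2606.5 in wild-type skin. All 6 measured granulocyte markers lay above 0 (median 0.46), and Ngp was called higher. The sums were 557.2 in transgenic and 321.5 in wild-type skin. Csf3r and Camp exceeded the floor only on the transgenic array, so their ratios are bounds that could not lie below 0. Mpo was at 0.01. Elane and Cxcr2, below the floor on both arrays, gave 28.3 and 9.5 in transgenic against 32.6 and 11 in wild-type skin. The part of these cell types in the values of the cornification genes was not tested. Of the listed T cell markers 2 of 7 with a probe set were measured, Thy1 (0.80) and Zap70 (0.74), the sums were 827.3 in transgenic and 526.3 in wild-type skin, and the CD3, CD4 and CD8 genes lay below the floor on both arrays. The AhR target Cyp1a1 gave 1801.7 in transgenic and 40.8 in wild-type skin.

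**Figure D5:**
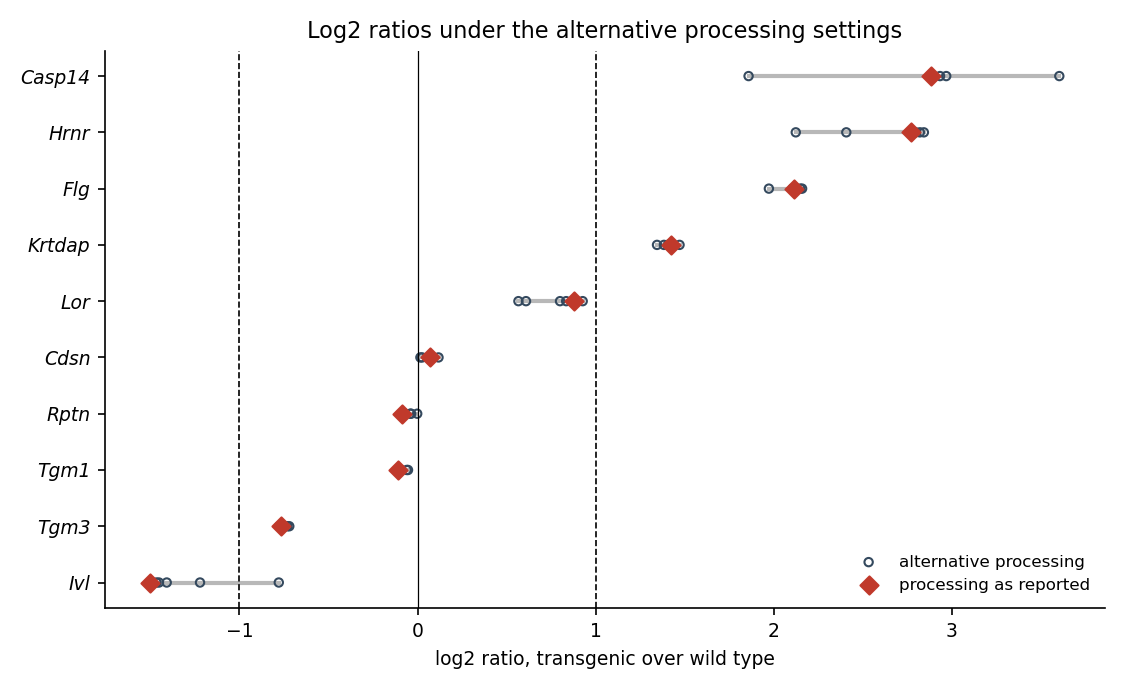
Log2 ratio, transgenic over wild type, of the 10 cornification genes as reported (diamonds) and under each alternative processing setting (open circles), with dashed lines at 2-fold. Each gene stays on its side of 0 in the settings that give a value, though Rptn, Tgm1 and Cdsn lie close to 0 throughout. Casp14, Hrnr and Ivl, with 1 signal at or near the floor, have the widest ranges.

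The direction of each of the 10 genes was the same in the settings that gave it a value, up to 10 per gene. For Rptn, Tgm1 and Cdsn this says little, since their ratios stayed within 0.12 of 0. Flg ranged from 1.97 to 2.16, Krtdap from 1.34 to 1.47, Tgm3 from -0.78 to -0.72 and Cdsn from 0.02 to 0.12. Flg and Krtdap, whose signals lay above the floor on both arrays by a wide margin, moved least among the genes called higher, while Casp14 ranged from 1.86 to 3.60.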

How the data were processed

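The deposited table holds a linear intensity for each probe set, never negative. The mean after trimming 2% at each end was 100.03 on both arrays, so the authors had scaled them before deposit. The labels name no software for this step, and neither detection calls nor scanner files entered the calculation. Probe sets were named through the platform annotation of 2016, with symbols updated by gene identifier (RefSeq table of GRCm38.p6). Of 22690 probe sets 20380 had 1 gene, 691 had several, 1555 had none and 64 were controls. Signals were scaled to equal trimmed means, raised to a floor at the 40th percentile of non-control signals (34.7) and put on the log2 scale (Python 3.11.15, pandas 2.3.3). The brightest probe set represented a gene. Genes were called at 2-fold, and a ratio with 1 array at the floor is a bound. The calculation was tested on simulated arrays with changes made only in genes well above the floor. Changed genes near the floor, such as Casp14, Hrnr and Ivl here, were not covered by that test. The genes and related lists were chosen with earlier results of these data known. Genes named from each list of related genes are those called and, where fewer than 3 were called, the 2 highest and 2 lowest measured; from each list of cell type markers, those called. A few others are named for their role. Alternatives covered scaling, floor, pseudocount, choice of probe sets and the limit of the call. The number of arrays limits the precision.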

Additional observations from a re-analysis of the deposited data

How the results depend on the processing

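Of 11 alternatives, 2 changed only the limit of the call, and the others were values as deposited, median centring, quantile normalization, lowess centring, a lower floor (20th percentile), a higher floor (60th percentile), a pseudocount of 16, the mean over probe sets and leaving out suffixed probe sets. The same 4 genes, Casp14, Hrnr, Flg and Krtdap, were at least 2-fold higher under all 9 of these. Ivl was at least 2-fold lower under 8 of them, and under the higher floor 0 genes were, Ivl being a bound of -0.78 there. There the median log2 ratio was 0.88 over 9 measured genes, since Rptn lay below that floor on both arrays. Some of the 9 alternatives could hardly change these calls. The arrays were already scaled alike, and each called gene has only 1 probe set, without a suffix. The values as deposited, the mean over probe sets and leaving out suffixed probe sets therefore left their ratios in place. A lower floor could only keep or enlarge them. At a limit of 1.5-fold 5 genes were higher, with Lor added, and 2 were lower, Ivl and Tgm3. At 3-fold 3 were higher, without Krtdap, and 0 were lower. Of 88 single values under the alternatives 8 moved by more than 0.265, the SD between probe sets of a gene, and each of the 10 genes kept its direction. The ratios of Rptn, Tgm1 and Cdsn were smaller than this SD in every setting, so their direction says little. Tgm1 had no value without suffixed probe sets. Low signal limits Ivl on the transgenic array, Casp14 and Hrnr on the wild-type array, and Rptn on both. No paired analysis was possible because each genotype has 1 array.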
